A study of Arabidopsis thaliana with 12 samples.

Results

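Nonspecific lipid transfer proteins of *Arabidopsis thaliana* were examined in seedlings pretreated with a bacterial signal. They comprise 9 genes, namely *LTP1*, *LTP2*, *LTP3*, *LTP4*, *LTP6*, *LTP12*, *AT5G01870*, *AZI1* and *EARLI1*. Members were found by their name in the gene column of both expression tables, and 8 of the 9 names were present among 36101 loci. *LTP1* was not found by that name. Its gene, *AT2G38540*, stands in the tables as *LP1*, the RefSeq symbol, and is described beside the 8 without being counted among them. The 9 genes were chosen by the FPKM fold changes of these same tables, in which lipid transport loci were higher after the pretreatment under the Col-0 label, so their fold changes are descriptions and were not tested.

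The 4 groups were wild-type Col-0 and the mutant *ali1*, both in the Columbia-0 background, each treated with acetone, the solvent, or with 6 µM oxo-C14-HSL, a long-chain *N*-acyl homoserine lactone with which bacteria sense their own density. The *ali1* line (N560407) is 1 T-DNA insertion line in *At5g14470*. Seedlings were 2 weeks old at transfer, the pretreatment lasted 3 days, and every group, the controls included, then received 100 nM flg22, a peptide of bacterial flagellin, for 2 h before harvest. Each group had 3 libraries (12 in all) of whole seedlings, and no group without flg22 was analysed here. The tables hold 1 FPKM value (fragments scaled to the length of the transcript and the size of the library) per group over its 3 libraries, so values per library and their spread are not known here, and no test was made from them. The depth of the libraries was estimated from the spacing of the lowest FPKM values and differed little, at 1.00 to 1.09 relative to the group labelled Col-0 acetone.

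The labels were checked on *ALI1* (chr5:4662775-4664681), the gene that carries the insertion in *ali1*. It stood at 15.0 FPKM after acetone and 11.1 after the pretreatment in the libraries labelled Col-0, and at 27.4 and 30.1 in those labelled *ali1*. The gene was thus detected under both labels, so neither set of libraries lacked reads of it. It was higher under the mutant label than under the Col-0 label. An FPKM value for a whole locus does not show whether its transcripts were intact. The description field of the labels also names the table of the other genotype for each sample. Whether the labels were exchanged was not tested. Groups are therefore called by their labels throughout, and every direction given for a genotype is that of the libraries labelled so.

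Nonspecific lipid transfer proteins are small secreted proteins of the cell wall and cuticle whose fold is held by cysteines paired in disulphide bridges around a lipid-binding cavity. They are known for carrying lipids to the plant surface, where wax and cutin are laid down, and several belong to the pathogenesis-related proteins. *AZI1* and *EARLI1* encode a hybrid form, in which a proline-rich stretch precedes the lipid transfer domain. *AZI1* is known for its part in systemic immunity, where azelaic acid primes distant leaves, and *EARLI1* for its response to cold and vernalization.

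The coding sequences of the TAIR10.1 reference were read for the order of their cysteine codons, which alone does not show lipid transfer. All 9 genes carried 8 cysteine codons in the order of the lipid transfer domain, with a pair of adjacent cysteines (CC) in the middle. In *LTP1*, *LTP2*, *LTP3*, *LTP4*, *LTP6*, *LTP12* and *AT5G01870*, which have 112 to 119 codons, the CC pair followed the cysteine before it after 13 codons, and the next cysteine came 19 codons later. *AZI1* (161 codons) and *EARLI1* (168 codons) had the reverse spacing, 19 and then 13. Before the first cysteine of the motif they held 20 and 22 proline codons, against 0 to 2 in the others. No stretch of 100 bases, the length of a read, in the transcripts of the 9 genes occurred in another annotated transcript, so reads of these genes were not shared with a copy at that length.

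The 250 bases upstream of the annotated start are shown for the 2 members furthest apart between the labels and for the 2 with the highest levels, since these carry the patterns described here. They are taken from the RefSeq genome (TAIR10.1), each 5′ to 3′ on the strand of its gene. Capitals mark the W-box core TTGAC, bound by WRKY factors in defence, and the core ACGTG of the abscisic acid response element, on either strand (GTCAA and CACGT on the other). The windows are chr5:336878-337127 (plus strand) for *AT5G01870*, chr5:23928704-23928953 (plus strand) for *LTP3*, chr4:7401952-7402201 (minus strand) for *AZI1* and chr4:7406995-7407244 (minus strand) for *EARLI1*.
AT5G01870: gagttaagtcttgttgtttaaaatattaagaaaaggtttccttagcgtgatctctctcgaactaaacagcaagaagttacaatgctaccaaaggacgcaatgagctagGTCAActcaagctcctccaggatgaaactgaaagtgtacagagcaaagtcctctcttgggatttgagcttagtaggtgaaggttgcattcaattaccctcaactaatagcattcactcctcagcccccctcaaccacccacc
LTP3: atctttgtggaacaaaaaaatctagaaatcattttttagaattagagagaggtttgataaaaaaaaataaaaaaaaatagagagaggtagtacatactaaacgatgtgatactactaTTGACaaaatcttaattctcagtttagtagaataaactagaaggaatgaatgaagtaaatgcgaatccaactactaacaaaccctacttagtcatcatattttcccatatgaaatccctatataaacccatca
AZI1: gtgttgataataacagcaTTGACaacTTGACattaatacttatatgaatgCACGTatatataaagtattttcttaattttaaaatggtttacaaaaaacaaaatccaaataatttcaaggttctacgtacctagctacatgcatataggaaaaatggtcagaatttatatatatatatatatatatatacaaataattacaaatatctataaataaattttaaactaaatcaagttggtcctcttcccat
EARLI1: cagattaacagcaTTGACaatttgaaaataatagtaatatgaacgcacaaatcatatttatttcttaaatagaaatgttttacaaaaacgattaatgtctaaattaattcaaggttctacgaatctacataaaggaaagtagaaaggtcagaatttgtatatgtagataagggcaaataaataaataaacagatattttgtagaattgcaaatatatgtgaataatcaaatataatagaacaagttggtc
The W-box core began 142 bases upstream of the start in *AT5G01870*, 133 in *LTP3*, 232 and 224 in *AZI1* and 237 in *EARLI1*. Of the 9 genes, 6 held it (*LTP1*, *LTP3*, *LTP4*, *AT5G01870*, *AZI1* and *EARLI1*), while 44.9% of 27437 promoters of the same length did so. The abscisic acid core stood in *LTP2* and *AZI1*, and in 22.9% of all promoters. The L1 box TAAATGNA, bound by factors of the epidermal layer, stood in *LTP4* alone of the 9 and in 9.91% of all promoters. The sequence TATAAA was found in *LTP3*, *LTP12* and *AZI1*, and in 47.4% of all promoters. None of these motifs overlapped another in the 4 windows shown, and a match is a description of letters only.

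The levels of the members covered a wide range. *AZI1* and *EARLI1* were among the most abundant transcripts of the seedlings, *LP1* and *LTP2* were abundant, *LTP6*, *AT5G01870* and *LTP3* were low, and *LTP4* and *LTP12* were near 0. By the mean over the 4 groups, *AZI1* (3612 FPKM) lay above 16840 of the 16846 loci with a mean of at least 1 FPKM, and *EARLI1* (1721 FPKM) above 16823. *LP1* (501 FPKM) lay above 98.9% of them and *LTP2* (107 FPKM) above 92.5%. *LTP6* (6.2 FPKM) lay above 31.6%, *AT5G01870* (4.51 FPKM) above 24.9% and *LTP3* (1.15 FPKM) above 1.99%. *LTP4* (0.0352 FPKM) and *LTP12* (0.00867 FPKM) did not reach 1 FPKM. FPKM is scaled by transcript length, so these levels can be set beside each other, but whether neighbours in the order differ beyond their spread cannot be said.

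**Figure D1:**
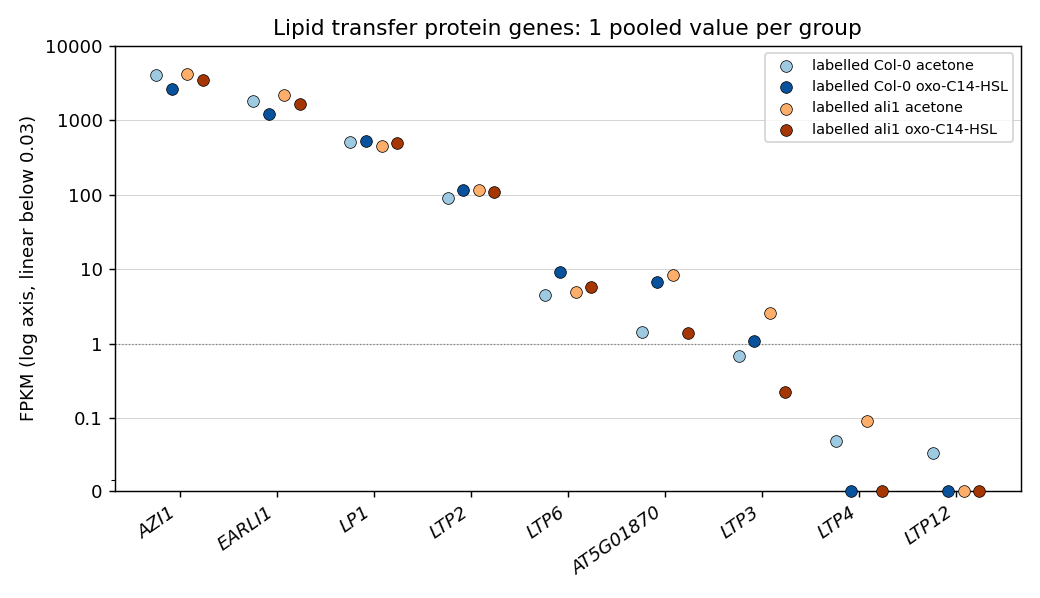
FPKM of the 8 lipid transfer protein genes found by name and of *LP1* (*LTP1*) on a log axis that is linear below 0.03, with 1 point per group over its 3 libraries and no error bars. *AZI1* reaches 4218 FPKM while *LTP12* is at 0.0347 or 0, and among members past 1 FPKM the 4 points spread most for *AT5G01870* and *LTP3*.

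The main question of the comparison is how the pretreatment with oxo-C14-HSL altered expression under each genotype label. The fold change was taken as log2(FPKM + 0.1), oxo-C14-HSL minus acetone, within a table, which understates the change of low genes. A locus was counted as higher or lower at a fold of at least 2, the fold the study's methods use, and only with a mean of at least 1 FPKM. Of the 8 members, 6 passed this filter, while *LTP4* and *LTP12* did not. *LTP3* would not have passed without its highest group, labelled *ali1* acetone, so its difference is partly set by the filter.

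Under the Col-0 label, 1 of the 6 members was higher after oxo-C14-HSL (*AT5G01870*) and 0 were lower, where 1.61% of all 16846 loci were higher and 0.374% lower. In the libraries labelled *ali1*, 2 of the 6 were lower (*LTP3* and *AT5G01870*) and 0 were higher, against 0.528% lower and 0.321% higher among all loci. The members include genes picked with these contrasts known, and nothing is read from their counts.

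*AT5G01870* was the member furthest apart between the tables. It is annotated as a type 1 lipid transfer protein (LTP10 in the RefSeq note) with 2 exons at chr5:337128-337914 on the plus strand. Under the Col-0 label its level was 1.47 FPKM after acetone and 6.82 after oxo-C14-HSL, and under the *ali1* label 8.34 after acetone and 1.39 after oxo-C14-HSL. The pretreated group was thus the high one under the Col-0 label and the low one under the *ali1* label, and the 4 values formed a high and a low pair. On the log2 scale the fold change was 2.14 (4.41-fold higher) in the first table and −2.50 (5.65-fold lower) in the second, a difference of 4.64 that cannot be tested. Among the acetone groups, which also received flg22, the level was 5.68 times as high under the *ali1* label, across 2 tables that were normalized separately. The values rest on about 61, 307, 346 and 59 fragments over the 3 libraries of each group, in the order of the levels given. These fragment numbers are estimates from the spacing of low FPKM values.

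*LTP3*, which with its neighbour *LTP4* belongs to the lipid transfer genes linked to abscisic acid and drought, also stood apart under the *ali1* label. The gene lies at chr5:23928954-23929816 on the plus strand. Its level was 0.691 FPKM after acetone and 1.08 after oxo-C14-HSL under the Col-0 label, and 2.60 and 0.225 under the *ali1* label. The acetone group labelled *ali1* was the highest of the 4 and the oxo-C14-HSL group of the same label the lowest. The log2 fold change was −3.05 (8.31-fold lower) under the *ali1* label and 0.58 (1.49-fold higher, not past the threshold) under the Col-0 label. It rests on about 120 and 11 fragments under the *ali1* label and 32 and 54 under the Col-0 label. With a pseudocount of 1 in place of 0.1 the value under the *ali1* label was −1.56, and without a pseudocount −3.53, in both cases lower.

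*LTP4* (chr5:23924990-23925957, minus strand) was listed at 0.0494 and 0.0912 FPKM after acetone under the Col-0 and *ali1* labels and at 0 in both oxo-C14-HSL groups. The values above 0 correspond to about 2 and 5 fragments. *LTP12* (chr3:19135619-19136675, minus strand), whose promoter is known to be active in the tapetum of the anther, was at 0.0347 FPKM (about 1 fragment) after acetone under the Col-0 label and at 0 in the other 3 groups. At these levels no fold change was taken, and a difference was not detectable at this depth.

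*LTP6* (chr3:2664069-2664888, minus strand) lay at the threshold in the libraries labelled Col-0. Its level was 4.61 FPKM after acetone and 9.32 after oxo-C14-HSL under that label, and 5.04 and 5.81 under the *ali1* label. The pretreated group labelled Col-0 was thus the high one, and the other 3 lay close together. The log2 fold change under the Col-0 label, 1.00 when rounded, fell just short of a fold of 2 with the pseudocount and just past it without one (1.01). Under the *ali1* label it was 0.20. The Col-0 values correspond to about 200 and 440 fragments.

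*LTP2* and *LP1*, neighbours on chromosome 2 and transcribed in the same direction, varied little. *LTP2* (chr2:16128176-16129399, plus strand), a member of the pathogenesis-related family 14, stood at 89.9 and 115 FPKM after acetone and oxo-C14-HSL under the Col-0 label and at 115 and 108 under the *ali1* label. *LP1* (chr2:16130290-16131240, plus strand), which encodes the LTP1 protein of epidermal cell walls, stood at 519.6 and 533 FPKM under the Col-0 label and at 459 and 493 under the *ali1* label. The log2 fold changes were 0.36 and −0.08 for *LTP2* and 0.04 and 0.11 for *LP1*, under the Col-0 and *ali1* labels.

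*AZI1* and *EARLI1*, neighbours on chromosome 4 with 1 exon each, were lower after the pretreatment under both labels without passing the threshold. *AZI1* (chr4:7401087-7401951, minus strand) stood at 4022 FPKM after acetone and 2674 after oxo-C14-HSL under the Col-0 label, and at 4218 and 3532 under the *ali1* label. *EARLI1* (chr4:7406065-7406994, minus strand) stood at 1816 and 1220.4 FPKM under the Col-0 label and at 2177 and 1672 under the *ali1* label. In each table the pretreated group was the lower one for both genes. The log2 fold changes were −0.59 (1.5-fold lower) and −0.26 (1.19-fold lower) for *AZI1*, and −0.57 (1.49-fold lower) and −0.38 (1.3-fold lower) for *EARLI1*, under the Col-0 and *ali1* labels. With about 73759 to 218301 fragments behind each value, counting error is small for these genes, but the spread between libraries is not known.

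**Figure D2:**
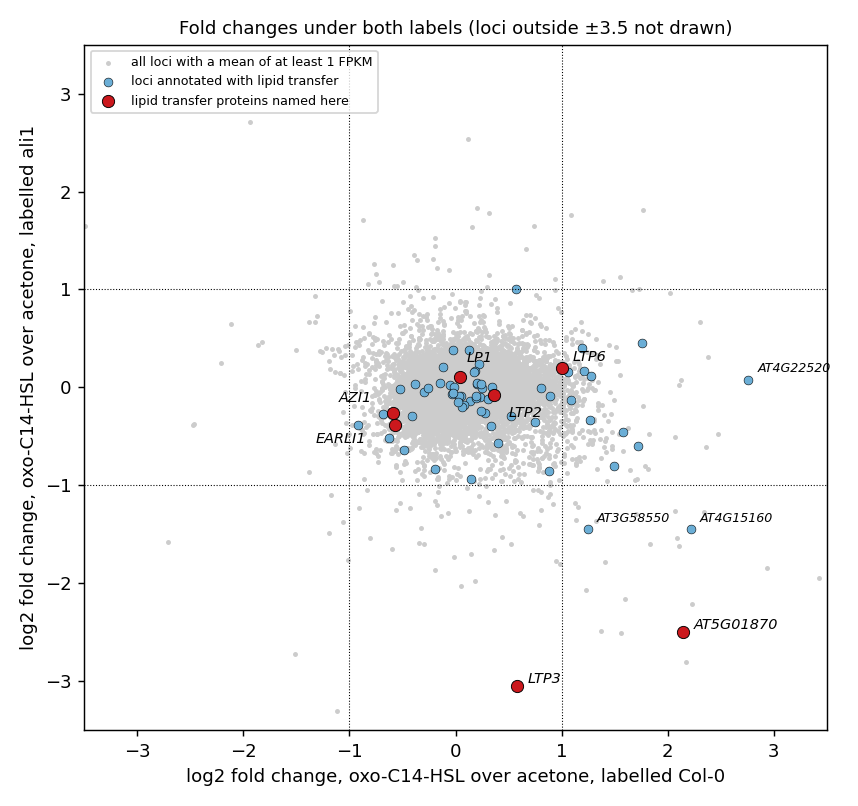
Log2 fold change, oxo-C14-HSL over acetone, under the Col-0 label (x axis) and the *ali1* label (y axis), for all loci with a mean of at least 1 FPKM (grey), loci annotated with lipid transfer (blue) and the members past the filter with *LP1* (red). Dotted lines mark a fold of 2. *AT5G01870* (2.14 and −2.50) lies in the lower right corner, *LTP3* (0.58 and −3.05) below it on the left, and the other members near the centre.

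The fold change under the Col-0 label depended on the level of a gene, and the members with a low level sit where it was above 0. Over all loci, the median log2 fold change under that label was 0.24 in the eighth with the lowest mean (1.00 to 2.33 FPKM) and −0.09 in the eighth with the highest. Of the lowest eighth, 6.89% were higher by the threshold, against 0.285% of the highest. Under the *ali1* label the corresponding medians were −0.01 and 0.00. Among 7338 loci with a mean of 1 to 10 FPKM, where *AT5G01870*, *LTP6* and *LTP3* lie, 3.28% were higher under the Col-0 label and 1.10% lower under the *ali1* label. With the running median over the level taken off, the log2 fold changes under the Col-0 label were 2.04 for *AT5G01870*, 0.97 for *LTP6* and 0.32 for *LTP3*. *AZI1* and *EARLI1* were at −0.54 and −0.53 on this scale, where the running median was −0.05 for both. That median was taken over the most abundant loci together, most of which lie below these genes in level.

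**Figure D3:**
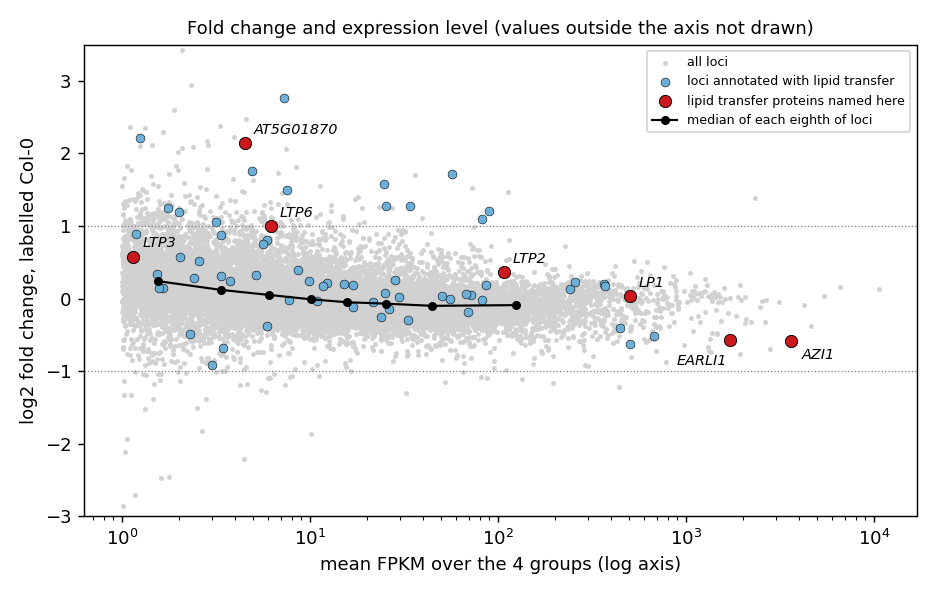
Log2 fold change under the Col-0 label against the mean FPKM over the 4 groups on a log axis, for all loci (grey), loci annotated with lipid transfer (blue) and the members past the filter with *LP1* (red). The black line joins the medians of the 8 equal parts of all loci and runs from 0.24 to −0.09, and *AT5G01870* at 2.14 lies far above it.

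Loci annotated with lipid transfer were looked at beyond the members. The words lipid transfer or LTP family stood in the product, note or description of 170 loci. Of these, 65 were at 0 in all groups and 67 passed the filter. Chosen by words alone, the list also takes in loci such as *ABCI14*, *ABCI15*, *GLTP1* and *ACD11*. It holds joint loci with other genes too, such as *ROC3*, so its values are not those of a single family. In the libraries labelled Col-0, 14 of the 67 (20.9%) were higher after oxo-C14-HSL and 0 were lower. Of all loci, 1.61% were higher and 0.374% lower under that label. The median log2 fold change of the list was 0.20 against −0.02 over all loci. Of the 67, 48 (71.6%) were above 0, against 46.8% of all loci. In the libraries labelled *ali1*, 1 was higher and 4 (5.97%) were lower, against 0.321% higher and 0.528% lower among all loci. The median was −0.09 against 0.01, and 22 (32.8%) were above 0 against 53.2% of all loci. Without the members, 13 of 61 were higher under the Col-0 label and 2 of 61 lower under the *ali1* label. The list holds genes that led to the choice of the members, and its counts are descriptions.

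Under the Col-0 label the 5 loci of the list with the largest log2 fold change were *AT4G22520* (2.76), *AT4G15160* (2.22), *AT5G01870* (2.14), *AT5G55450* (1.76) and *AT4G22517* (1.72), all annotated as members of the superfamily of lipid transfer proteins, protease inhibitors and seed storage albumins. Stretches of 100 bases shared with other annotated transcripts made up 100% of *AT4G22520*, 49.9% of *AT5G55450* and 37.0% of *AT4G22517*. For *AT4G15160* and *AT5G01870* the share was 0%. Under the *ali1* label the lower loci were *LTP3* (−3.05), *AT5G01870* (−2.50), *AT4G15160* (−1.45) and *AT3G58550* (−1.45), and the higher locus was *AT5G55460* (1.01). Of the 67 loci, 3 were higher under the Col-0 label and lower under the *ali1* label, namely *AT5G01870*, *AT4G15160* and *AT3G58550*. Over all loci this held for 25 of 16846. *AT4G15160*, like *LTP3*, passed the filter only with its highest group, labelled *ali1* acetone, and its place among the 3 is partly set by the filter. *AT3G58550* would not have passed it on its low groups alone (1.07 and 0.823 FPKM), so the same holds for its place.

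Both other loci with opposite directions were expressed at a low level. *AT4G15160*, of the same superfamily, stood at 0.259 FPKM after acetone and 1.57 after oxo-C14-HSL under the Col-0 label, and at 2.37 and 0.804 under the *ali1* label. *AT3G58550* (LTPG22), which belongs to the lipid transfer proteins held at the membrane by a GPI anchor, stood at 1.07 and 2.67 FPKM under the Col-0 label and at 2.42 and 0.823 under the *ali1* label. In both genes, as in *AT5G01870*, the Col-0 acetone group was lower than the *ali1* acetone group, so that the tables also differed between the acetone groups. The log2 fold changes were 2.22 and −1.45 for *AT4G15160* and 1.25 and −1.45 for *AT3G58550*, under the Col-0 and *ali1* labels.

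Many of the higher loci lay side by side on chromosome 4. Loci of the annotation list at most 20 kb apart were joined into clusters of at least 5 genes, a rule set after the values were seen. It gave 6 clusters. In those not described here at most 1 gene passed the filter and 0 passed the fold threshold. The cluster of *AZI1* and *EARLI1* (chr4:7401087-7439805) held 9 genes, of which 6 passed the filter and 0 passed the fold threshold under either label. Of these 6, 1 was above 0 under the Col-0 label and 0 under the *ali1* label. *AT4G12490* (AZI3) stood at 480.3 and 311 FPKM after acetone and oxo-C14-HSL under the Col-0 label and at 714 and 499 under the *ali1* label. *AT4G12500* (AZI4) stood at 55.9 and 49.0 FPKM, and at 109 and 61.6. These close relatives of *AZI1* were thus also lower after the pretreatment, with log2 fold changes of −0.63 and −0.52 for *AT4G12490* and −0.19 and −0.83 for *AT4G12500*. For *AIR1*, an auxin-induced gene of roots, the values were −0.92 and −0.38. Of the stretches of 100 bases in its transcript, *AT4G12490* shares 26.6% and *AIR1* 15.2% with other annotated transcripts, and *AT4G12500* 0%.

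A second cluster (chr4:11838960-11858970) ran from *AT4G22460* to *AT4G22520*. Of its 8 genes 7 passed the filter, and 6 of them were higher after oxo-C14-HSL under the Col-0 label, with 0 past the threshold under the *ali1* label. Of all loci, 1.61% were higher under the Col-0 label, and 0.321% were higher and 0.528% lower under the *ali1* label. *AT4G22490* stood at 21.7 and 52.6 FPKM after acetone and oxo-C14-HSL under the Col-0 label and at 34.3 and 27.2 under the *ali1* label. *AT4G22517* stood at 27.5 and 90.7 FPKM, and at 66.2 and 43.7. In both genes the Col-0 acetone group was the lowest of the 4 and the Col-0 oxo-C14-HSL group the highest. The exception was *AT4G22470*, the most abundant gene of the cluster, at 757 and 529 FPKM under the Col-0 label (log2 fold change −0.52) and 719 and 708 under the *ali1* label (−0.02).

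The values of this second cluster are not independent. *AT4G22513* and *AT4G22517* lie in 1 joint locus of the tables. Of all stretches of 100 bases in its transcript, *AT4G22520* shares 100% with *AT4G22530* on the opposite strand, *AT4G22485* 88.0%, *AT4G22470* 81.9%, *AT4G22505* 84.6%, *AT4G22513* 54.3% and *AT4G22517* 37.0% with other annotated transcripts, and *AT4G22490* 0%. Reads of such genes cannot be told apart without strand, and how the authors treated strand was not given in these sources. Of the 14 loci of the annotation list that were higher under the Col-0 label, 8 share no such stretch, as do all 4 that were lower under the *ali1* label.

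**Figure D4:**
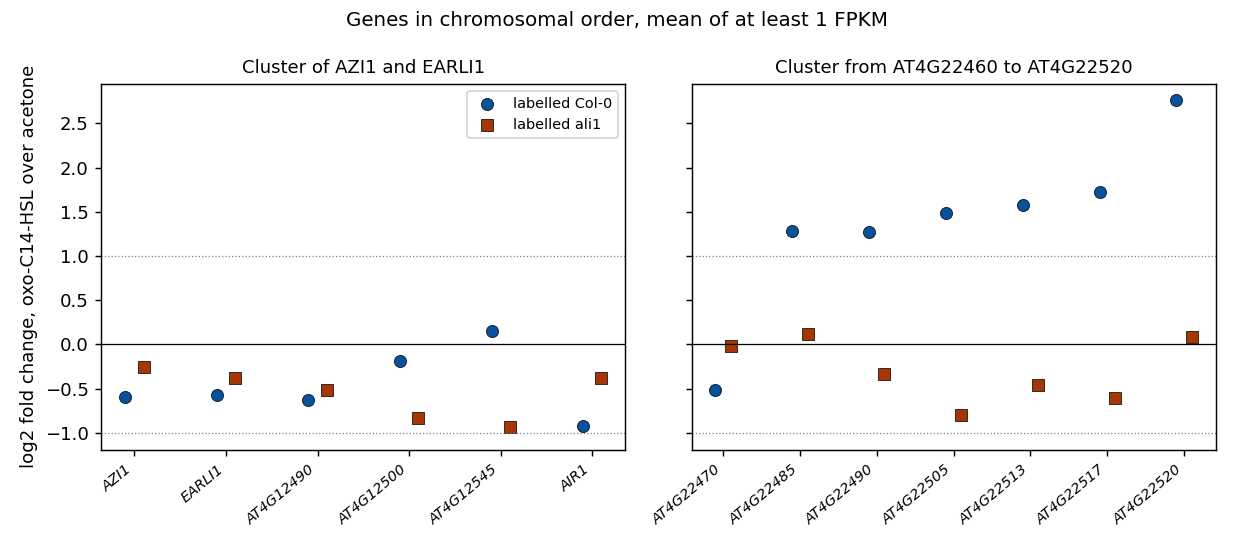
Log2 fold change after oxo-C14-HSL over acetone for the genes of both described chromosome 4 clusters that passed the filter. Genes are in chromosomal order, in the libraries labelled Col-0 (blue circles) and *ali1* (brown squares). Dotted lines mark a fold of 2. In the cluster of *AZI1* and *EARLI1* 0 of 6 genes pass a line, and in the other 6 of 7 lie above the upper line under the Col-0 label.

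Other genes of the pathway were read from short lists, beside the shares of all loci given above (1.61% higher under the Col-0 label and 0.528% lower under the *ali1* label). Of 8 further type 1 lipid transfer proteins, 3 passed the filter, 0 passed the threshold and 4 were at 0 in all groups. *LTP5* stood at 366 and 411 FPKM after acetone and oxo-C14-HSL under the Col-0 label and at 330 and 369 under the *ali1* label. *AT2G18370* (LTP8) stood at 2.69 and 5.03 FPKM, and at 3.70 and 2.01, with log2 fold changes of 0.88 and −0.85. Its directions were those of *AT5G01870*, short of the threshold. Of 12 GPI-anchored lipid transfer proteins, some of which are known for the export of wax to the cuticle, 11 passed the filter, 1 was higher under the Col-0 label and 1 lower under the *ali1* label, in both cases *AT3G58550*. The medians of this list were 0.25 and −0.11.

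Of 5 genes for the lipid signals of systemic acquired resistance, 3 passed the filter. *AT5G48490*, the neighbour and close relative of *DIR1*, was higher under the Col-0 label, at 1.54 and 3.63 FPKM, and stood at 1.24 and 1.66 FPKM under the *ali1* label, with log2 fold changes of 1.19 and 0.40. *DIR1* itself, a lipid transfer protein that moves through the phloem to distant leaves, had a mean of 0.159 FPKM and did not pass the filter. All of the 100-base stretches in its transcript are shared with *AT5G48480*, so its level is uncertain. Of 5 regulators (*MYB96*, *MYB94*, *MYB30*, *MPK3* and *MPK6*), 0 passed the threshold under either label. *MYB96*, an activator of wax genes and of *LTP3* in drought, stood at 72.2 and 59.3 FPKM under the Col-0 label and at 62.1 and 72.8 under the *ali1* label.

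Several members are genes of the epidermis, and markers of tissues were read beside them. Of 5 epidermis markers, 1 was higher under the Col-0 label (*PDF1*, 30.2 and 65.1 FPKM) and 0 passed the threshold under the *ali1* label (*PDF1*, 30.8 and 31.2 FPKM). Under the Col-0 label *ATML1* stood at 26.6 and 26.3 FPKM, *FDH* at 138 and 136, *CER1* at 0.913 and 1.75 and *CER6* at 77.0 and 84.4. Under the *ali1* label *ATML1* stood at 20.5 and 24.6, *FDH* at 105 and 146, *CER1* at 0.717 and 0.765 and *CER6* at 82.7 and 122. The log2 fold change was above 0 in 3 of the 5 under the Col-0 label (median 0.13) and in all 5 under the *ali1* label (median 0.26). The summed level of the 5 markers was 273 and 314 FPKM after acetone and oxo-C14-HSL under the Col-0 label and 239.5 and 325 under the *ali1* label, with none at 0. Of 4 shoot markers 0 passed the threshold, with sums of 20215 and 21907 FPKM and of 21055 and 19552. Of 4 root markers 2 passed the filter and 0 the threshold, with sums of 381 and 512 FPKM and of 400.3 and 421 that are nearly all *PYK10* (*BGLU23*). *CASP1*, a marker of the root endodermis, stood at 10.0 and 6.85 FPKM under the Col-0 label and at 9.02 and 15.4 under the *ali1* label. *EXPA7* and *COBL9*, which mark root hairs, reached at most 0.197 and 0.0412 FPKM, and *COBL9* was at 0 in the Col-0 acetone group. The part of tissue makeup in the results was not tested, and more cells of a type and more RNA per cell cannot be told apart in whole seedlings.

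The loci most like *AT5G01870* were found by the Euclidean distance over both log2 fold changes, which are 2 values from 4 groups. The nearest was *XTH20* (distance 0.3), an enzyme that remodels cell wall xyloglucan, at 1.42 and 7.0 FPKM under the Col-0 label and 6.16 and 1.25 under the *ali1* label. *AT3G16670* (0.303), annotated as a Pollen Ole e 1 allergen and extensin family protein, stood at 0.811 and 4.00 FPKM, and at 5.74 and 0.738. The others were *AT1G06423* (0.583), a locus that holds *AT5G06505* and *AT5G06515* (0.642), and *GASA5* (0.772), of a family of gibberellin-regulated peptides. In all 5, the Col-0 oxo-C14-HSL and *ali1* acetone groups were both higher than the Col-0 acetone and *ali1* oxo-C14-HSL groups. The order of the groups within each table was set by the choice of these loci and is no separate result. On its low groups alone (1.42 and 1.25 FPKM), only *XTH20* of the 5 would have passed the filter. The others passed it only with their high groups, so their place here is partly set by the filter.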

How the data were processed

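Reads of 12 libraries (single-end, 100 bp) were mapped by the authors with RNAStar. Transcripts came from cufflinks 2.2.1.0 and cuffmerge, and cuffdiff 2.2.1.5 was run once for each genotype (build TAIR10 in the submitters' processing notes). The deposited FPKM values pool the 3 libraries of a group into 1 value, and the authors normalized each table on its own, by a method not given in the sources used here. The fold changes, test statistics, p-values and q-values of the authors' own comparisons also stand in the tables and were not used. The FPKM values are pooled, so no test was made from them. Groups came from the sample titles.

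Fold changes were computed with Python 3.11.15, numpy 2.4.6 and pandas 2.3.3 on log2(FPKM + 0.1), checked on simulated data, and drawn with matplotlib 3.10.9. Loci needed a mean of at least 1 FPKM over the 4 groups, and 44 loci that cuffdiff marked as holding too many fragments were left out. No counts are in the tables, so depth was only estimated from the spacing of FPKM values, and no interval was drawn. Gene names, coordinates and sequences came from RefSeq (TAIR10.1), and motifs were searched on both strands. The genes shown were all members, list genes past the threshold, the 5 loci of the annotation list with the largest fold in each direction and table, and the 5 loci nearest to *AT5G01870*. *LTP5*, *AT2G18370*, *MYB96*, *EXPA7*, *COBL9*, *CASP1*, *PYK10*, *ATML1*, *FDH*, *CER1*, *CER6*, *AIR1* and the other cluster genes were added after their values were seen. The members and lists (9 lists with 59 entries) were chosen with earlier results of these data known. Alternatives covered the pseudocount, the filter, the fold threshold, centring, a running median over 50 bins and loci with 1 named gene.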

Additional observations from a re-analysis of the deposited data

Results flagged for a closer look

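In 3 of the 67 loci annotated with lipid transfer the pooled values lay past a fold of 2 in opposite directions. They were higher under the Col-0 label and lower under the *ali1* label, as were 25 of 16846 among all loci. The log2 fold change under the Col-0 label minus that under the *ali1* label was 4.64 for *AT5G01870*, 3.67 for *AT4G15160* and 2.70 for *AT3G58550*. With 1 pooled value per group these differences were not tested. *AT4G15160* passed the filter only with its highest group, labelled *ali1* acetone, so its place here is partly set by the filter. The same holds for *AT3G58550*, which would not have passed it on its low groups alone (1.07 and 0.823 FPKM). In each of the 3 genes the acetone level was higher under the *ali1* label than under the Col-0 label, across tables that were normalized separately.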

How the results depend on the processing

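Of the 9 alternatives, 4 can move a log2 fold change (both pseudocounts, centring and the running median). Under these, 48 of 48 values of the members past the filter kept their sign, and 8 moved by more than 0.1. A pseudocount cannot alter a sign, so for both pseudocounts the sign was fixed in advance. With a pseudocount of 1 FPKM, *AT5G01870* was at 1.66 under the Col-0 label and −1.97 under the *ali1* label. The count of members higher under the Col-0 label (1) was 2 without a pseudocount, with each table centred on its median and at a fold of 1.5, since *LTP6* then passed, and 0 with a mean of at least 5 FPKM, since *AT5G01870* was then left out. Of all loci, 1.82% were higher under that label without a pseudocount and 1.73% with centring. The share was 6.39% at a fold of 1.5 and 0.53% with a mean of at least 5 FPKM. At a fold of 1.5, 1 member (*AZI1*) was lower under the Col-0 label, where 1.68% of all loci were lower. The count of members lower under the *ali1* label (2) was 0 with a mean of at least 5 FPKM, where 0.187% of all loci were lower.

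Shares of all loci called in the same direction under the same setting stand in brackets. Of the annotation list, 14 loci were higher under the Col-0 label. They were 8 with a mean of at least 5 FPKM (0.53%) and 3 at a fold of 4 (0.243%). The 0 lower ones were 1 without the filter (1.42%), 4 at a fold of 1.5 (1.68%) and 1 with the running median taken off (0.546%). Under the *ali1* label, the 1 higher locus was 0 with a pseudocount of 1 (0.178%). It was also 0 with a mean of at least 5 FPKM (0.114%) and at a fold of 4 (0.101%). The 4 lower loci were 2 with a pseudocount of 1 (0.309%), 7 without the filter (2.17%) and 0 with a mean of at least 5 FPKM (0.187%). They were 10 at a fold of 1.5 (2.12%) and 2 at a fold of 4 (0.154%).

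No paired analysis was possible because the tables hold 1 pooled value per group, and for the same reason no library could be left out. Depth limits *LTP4* and *LTP12* (at most about 5 fragments in a group) and *LTP3* (about 11 in the lowest group).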
